A study of Homo sapiens with 8 samples.

Results

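The RNA helicases whose symbols begin with DDX or DHX followed by a number were examined by SLAM-Seq in human U-2OS cells with and without CGGBP1. They were taken by symbol alone, which gave 52 of the 18388 genes listed, 36 DDX and 16 DHX. U-2OS Tet-ON is an osteosarcoma line that carries a tetracycline-regulated transactivator. All cells were transfected with 50 nM siRNA for 72 h, either a non-targeting control (siControl) or siRNA against CGGBP1 (siCGGBP1), and 3 replicates per group were given 75 µM 4-thiouridine (4sU) for the last 60 min. A siControl library without 4sU and another at 200 µM were single and entered no test. The titles of all 8 libraries also carry the word DMSO. Nothing in the labels says whether replicates came from separate cultures, so p-values measure the spread between these libraries, which may be technical.

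The DDX symbol is named for the DEAD-box motif, whose presence in each member was not checked here. Typical DEAD-box proteins pry apart short RNA duplexes or clamp RNA, each with its own partner proteins. DHX proteins are DEAH-box or related enzymes that walk along RNA, and several drive the spliceosome from one step to the next or pull it apart. CGGBP1 binds CGG triplet repeats in DNA, and DDX41, DHX15 and DDX28 were among its protein partners in the study, so the question here was whether the RNA of any helicase rose or fell when CGGBP1 was depleted.

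CGG triplets near the start of a gene are the sequence feature that bears most on CGGBP1. Of the 52 helicases, 47 had at least 1 promoter in the RefSeq table (GRCh38.p14, 250 bases before to 50 after the start). A tract of at least 3 CGG repeats in a row was searched as CGGCGGCGG and as its reverse complement CCGCCGCCG on both strands. It was present in a promoter of 1 of the 47 helicases (2.13%) and in 6.21% of all 35116 promoters in the table. Some helicases have several promoters, so the first share is per gene and the second per promoter. The promoter that held it was that of DHX30, a mitochondrial helicase, and the window lies on chromosome 3, plus strand, at chr3:47802909-47802938. Its tract starts 220 bases before the RefSeq start. For the partners DDX41, DHX15 and DDX28 the 30 bases with the most triplets are shown, 5′ to 3′ on the gene's strand. In the DHX30 window capitals mark the tract, and in the other 3 every CGG or CCG.
DHX30: ccgcctgcaCCGCCGCCGcgccccattggg
DDX41: CCGGaactCCGaggtcgttcctacgcgCCG
DHX15: cgCCGCCGccattttagctgttggttCCGG
DDX28: gccaCCGtacgcgaggtcgCGGcgcgtCCG
The DDX41 window (chr5:177517028-177517057, minus strand) begins 96 bases before the RefSeq start. The DHX15 window (chr4:24584520-24584549, minus strand) begins 5 bases after the first transcribed base, so it is part of the transcript. The DDX28 window (chr16:68023243-68023272, minus strand) begins 40 bases before the start. Single CGG or CCG triplets numbered 16 in the whole 300-base promoter of DDX41, 13 in that of DHX15 and 13 in that of DDX28. The median was 15 over 1 promoter for each of the 47 helicases and 9 over all promoters. A match is only a description of the letters, and no binding data were used here.

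The reads of SLAM-Seq count 3′ ends of polyadenylated RNA, and T-to-C conversions mark RNA made during the 4sU pulse. Total reads ranged from 10127519 to 19011714 per library. CGGBP1 itself had 1236, 1086 and 892 normalized reads in siControl and 213, 119 and 360 in siCGGBP1 (scaled over all 8 libraries), with a log2 fold change of -2.22 ± 0.39 (SE, adjusted p = 0.0138). Of the markers of a bone-derived mesenchymal line, VIM, SPARC, COL1A1 and RUNX2 were detected in every library, and CDH1, CD3E and PECAM1 were at 0 throughout. EPCAM reached 152 normalized reads, PTPRC 8.04 and CDH5 0.954, and COL1A2, KRT5 and HBB had no row. SPARC (6061 to 8489 against 15090 to 21790 normalized reads) and COL1A1 (6969 to 9825 against 17490 to 23450) were higher in every siCGGBP1 library, and their part in the helicase results was not tested. The siCGGBP1 replicate 3 library stood apart. Its log2 expression correlated with the other 5 libraries at r = 0.679 to 0.788, siControl replicate 3 at 0.795 to 0.851 with the remaining ones, and the other 4 libraries at 0.894 to 0.949 among themselves. Several fold changes are therefore also given without both replicate 3 libraries. Relative RNA amounts are all that these libraries show, since a change in total RNA per cell cannot be told apart from a change in scale.

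Of the 52 helicases, 48 (34 DDX and 14 DHX) reached 100 reads in 3 or more of the 6 compared libraries and were tested. DDX59 reached that minimum through siControl alone, so a lower siCGGBP1 value was built into its being tested, and the other 47 reached it in both groups. DDX3Y, DDX60, DHX35 and DHX58 did not reach it. Over these 6 libraries DDX60 and DHX58, which respond to interferon, had at most 142 and 1.16 normalized reads, and in the single library at 200 µM 4sU they had 252 and 136. DHX35, found in spliceosomes, ranged from 15.6 to 261 over the 6, with 293 in the unlabelled library and 0 in the library at 200 µM. No row was found for DDX4, DDX25 or DDX53. Reads are not divided by transcript length, so they say which genes carry the counting precision and not how many molecules each gene has. DDX21, DDX5, DDX18 and DDX1 took 41.7% of all DDX reads in siControl. DHX36, DHX9 and DHX29 took 45.2% of the DHX reads.

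No helicase rose or fell in total RNA past an adjusted p of 0.05 by edgeR's quasi-likelihood test, whose values are corrected over all 10138 tested genes. Among all tested genes 0.572% were past that threshold and higher in siCGGBP1, and 1.21% were past it and lower. With a log2 fold change beyond 1 as well, 0.454% were called higher and 0.957% lower. The lowest adjusted p of any helicase was 0.159, for DHX38. At an unadjusted p under 0.05 there were 7 helicases, all lower in siCGGBP1 (DHX38, DDX46, DDX1, DHX29, DHX9, DDX59 and DDX19B), 14.6% of the helicases. Of all tested genes 8.32% were lower and 8.10% higher at that level. Without DDX59 the share was 6 of 47 (12.8%). DESeq2, which passed 6.01% of all tested genes in either direction, passed none of the helicases, with a lowest adjusted p of 0.0584.

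The fold changes leaned to the low side. Of the 48 helicases, 38 (79.2%) had a log2 fold change below 0, against 49.9% of all tested genes. The median was -0.19 for DDX and -0.17 for DHX, and 0.00 for all tested genes. The groups did not overlap, with siCGGBP1 lower, for 7 helicases (14.6%, background 12.1%): DDX59, DDX41, DHX38, DDX1, DHX8, DDX18 and DDX50. Without DDX59 this was 6 of 47 (12.8%). They did not overlap, with siCGGBP1 higher, for DHX57 and DDX43 (4.17%, background 12.1%). The helicases are no replicates of each other, since all fold changes come from the same 6 libraries. Their median level in siControl was 889 normalized reads, against 462 for all tested genes. The background shares were not matched for read level.

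**Figure D1:**
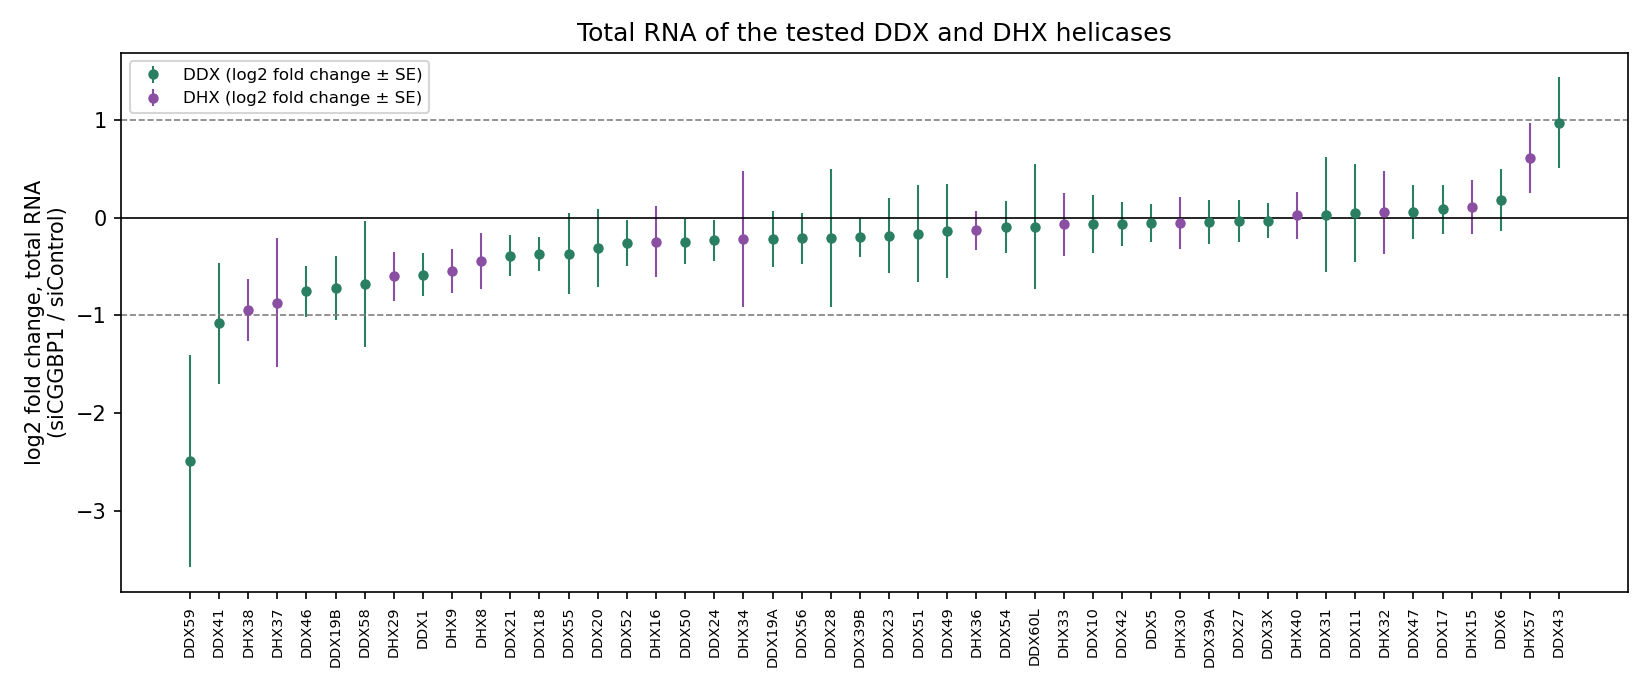
Log2 fold change of total RNA (siCGGBP1 over siControl, y axis) with its standard error for the 48 tested helicases, ordered by size, DDX in green and DHX in purple. The dashed lines mark a log2 change of 1 in each direction. Most points lie between 0 and -1, DDX59 lies at -2.49 with the longest bar, and DDX and DHX are mixed along the order.

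The precision differed widely with read number. The 15 helicases under 500 normalized reads in siControl had standard errors of 0.356 to 1.08 on the log2 scale. The 22 with 500 to 2000 had 0.208 to 0.412. The 11 above 2000 had 0.173 to 0.260. The 95% interval of the fold change lay wholly inside a log2 change of 1 in either direction for 24 helicases, 8 of the 11 with the most reads and 1 of the 15 with the fewest. For the other 24 a change of that size was within the interval.

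The partner DDX41 (chr5:177511577-177516961, minus strand, GENCODE 44) is a helicase of the catalytic spliceosome that is also studied as a sensor of nucleic acids. It had 202, 295 and 134 normalized reads in siControl and 119, 123 and 55.9 in siCGGBP1. Each siCGGBP1 value was below each siControl value, though siControl replicate 3 and siCGGBP1 replicate 2 differed little. This gave a log2 fold change of -1.08 ± 0.62 (SE, n = 3 per group, adjusted p = 0.419), with a 95% interval from -2.42 to 0.26. Without both replicate 3 libraries it was -1.03 (adjusted p = 0.205). The siControl libraries with 0 and 200 µM 4sU had 231 and 303.

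The partner DHX15 (chr4:24517441-24584554, minus strand) frees the excised intron from the spliceosome and also acts in ribosome assembly. It had 866, 1052 and 622 normalized reads in siControl and 951, 729 and 1064 in siCGGBP1, and the groups overlapped throughout. The log2 fold change was 0.11 ± 0.28 (adjusted p = 0.895), with a 95% interval from -0.49 to 0.71, so a 2-fold change in either direction lies outside it. Without both replicate 3 libraries it was -0.19.

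The partner DDX28 (chr16:68020916-68023232, minus strand), which helps assemble the mitochondrial ribosome, had few reads. They were 172, 217 and 79.3 in siControl and 250, 102 and 55.1 in siCGGBP1. Its log2 fold change was -0.21 ± 0.71 (adjusted p = 0.924), with an interval from -1.74 to 1.33. At this depth a change of the size seen for CGGBP1 lies outside the interval, whereas a 2-fold change does not.

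**Figure D2:**
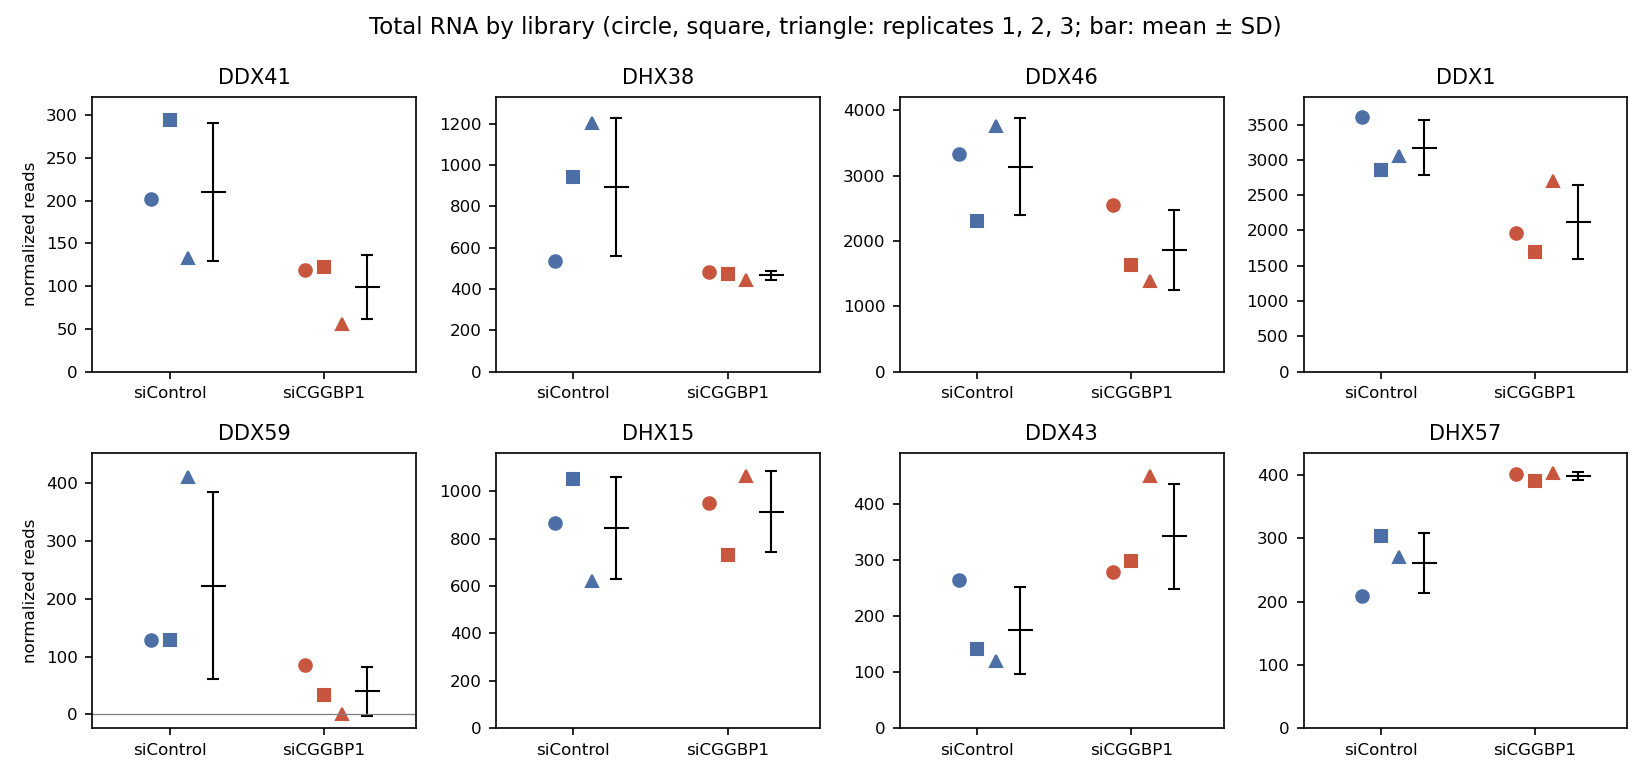
Normalized reads in each library (y axis, starting at or just below 0) for 8 helicases, siControl in blue and siCGGBP1 in red, with circles, squares and triangles for replicates 1 to 3 and the mean ± SD (n = 3) in black. DDX41, DHX38, DDX1 and DDX59 have every red point below every blue one, DDX46 and DHX15 overlap, and DDX43 and DHX57 have every red point above.

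Among the helicases of splicing 13 of 14 were tested, none passed the test in either direction and 10 had a log2 fold change below 0 (median -0.18, range -1.08 to 0.11). DHX38, which drives the second step of splicing, had 536, 942 and 1201 normalized reads in siControl and 483, 471 and 442 in siCGGBP1. The siCGGBP1 libraries were close together and the siControl libraries far apart, with replicate 1 near the siCGGBP1 values. On the log2 scale the change was -0.94 ± 0.32 (adjusted p = 0.159), and it shrank to -0.63 without both replicate 3 libraries (adjusted p = 0.274).

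DDX46, which acts at the branch point early in spliceosome assembly, had 3331, 2314 and 3765 normalized reads against 2555, 1637 and 1393. The lowest siControl library lay below the highest siCGGBP1 library. The log2 fold change was -0.75 ± 0.26 (adjusted p = 0.167). It passed the threshold in a single setting, the fit without a filter on low counts (-0.78, adjusted p = 0.0419), and came to -0.42 without both replicate 3 libraries (adjusted p = 0.371). The annotated 3′ end of DDX46 lies inside C5orf24 on the same strand, so its 3′ reads may not be its own alone. DHX8, which releases spliced mRNA from the spliceosome, had 695, 589 and 589 against 499, 488 and 392, without overlap (log2 fold change -0.44 ± 0.28, adjusted p = 0.482).

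DDX5 and DDX17, paralogs that act in splicing and microRNA processing, had fold changes near 0. DDX5 had 5608, 4576 and 6402 normalized reads against 5416, 4303 and 6208, with a log2 fold change of -0.06 ± 0.20. DDX17 had 2112, 1813 and 3302 against 2763, 2017 and 2883 (0.08 ± 0.25). The 95% intervals were -0.48 to 0.36 and -0.45 to 0.62. The export paralogs DDX39A and DDX39B likewise had log2 fold changes of -0.04 ± 0.23 and -0.20 ± 0.20. DDX23, which helps activate the spliceosome, had 444, 363 and 463 against 542, 354 and 224 (-0.18 ± 0.38).

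All 16 helicases of ribosome assembly were tested. None passed the test, and 14 had a log2 fold change below 0 (median -0.19, range -0.87 to 0.06). DDX21, a nucleolar helicase that also binds RNA polymerase II genes, had the most reads of all 52, 10620, 6604 and 6569 against 5957, 5434 and 6789. Only siControl replicate 1 stood clearly above the rest. The log2 fold change was -0.39 ± 0.21 (adjusted p = 0.381), which became -0.12 without that library and -0.59 without both replicate 3 libraries. DDX18 had 5242, 4243 and 4459 against 3504, 3559 and 3693 without overlap. Its fold change of -0.37 had the smallest error of any helicase (± 0.17, adjusted p = 0.305), and the interval from -0.75 to 0.00 did not reach a 2-fold decrease. DDX50, a close relative of DDX21, had 961, 973 and 1121 against 901, 837 and 838 (-0.25 ± 0.23). DHX37, needed for the small subunit, had 158, 158 and 268 against 58.1, 194 and 68.0, which overlapped (-0.87 ± 0.66, adjusted p = 0.567, or -0.31 without both replicate 3 libraries). DDX10, DDX47 and DDX54 had log2 fold changes of -0.07, 0.06 and -0.09.

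For translation, export and mRNA decay 10 helicases were tested, none passed the test and 8 had a log2 fold change below 0 (median -0.22, range -0.72 to 0.61). DDX1, a subunit of the tRNA ligase complex, had 3611, 2849 and 3060 normalized reads against 1960, 1697 and 2703. The groups were apart, with siCGGBP1 replicate 3 close to the lowest siControl library. The log2 fold change was -0.58 ± 0.22 (adjusted p = 0.199), and without both replicate 3 libraries it was -0.81 and past the threshold (adjusted p = 0.0449).

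DHX29, which helps the small ribosomal subunit scan structured leaders, had 1803, 1311 and 2311 against 1321, 1237 and 1022 (-0.60 ± 0.25, adjusted p = 0.249, or -0.28 without both replicate 3 libraries). DHX36, which unwinds G-quadruplexes, had 2373, 1846 and 2405 against 2114, 1993 and 1947 (-0.13 ± 0.20). DHX57 was higher in every siCGGBP1 library, 402, 391 and 403 against 209, 303 and 270. Its log2 fold change of 0.61 ± 0.36 had an adjusted p of 0.431. The pore-associated export paralogs DDX19A and DDX19B share sequence and their reads may be split between them. DDX19A had a log2 fold change of -0.21 ± 0.29 and DDX19B of -0.72 ± 0.33 (adjusted p = 0.303), or -0.11 and -0.47 without both replicate 3 libraries. DDX3X, a translation helicase, had 2462, 2447 and 2753 against 2382, 2688 and 2436 (-0.03 ± 0.18). DDX20, the Gemin3 subunit of the SMN complex, was at -0.31 ± 0.40, or at -0.52 without both replicate 3 libraries.

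The lowest and the highest fold change came from helicases outside these groups. DDX59 (chr1:200623896-200669907, minus strand), linked to ciliary signalling, had 130, 129 and 411 normalized reads in siControl and 85.1, 33.7 and 0.82 in siCGGBP1. The replicate 3 libraries lay at opposite ends of this range. The log2 fold change of -2.49 ± 1.08 (adjusted p = 0.277) fell in size to -1.70 without siControl replicate 3, to -1.91 without siCGGBP1 replicate 3 and to -1.12 without both. DDX59 was tested through its siControl reads alone, so a lower siCGGBP1 value was built in. DDX43, a cancer and testis antigen and the only listed member of the germ cell group, had 264, 142 and 119 against 279, 299 and 451. Its lowest siCGGBP1 library was just above its highest siControl library, and the log2 fold change was 0.97 ± 0.46 (adjusted p = 0.324), or 0.52 without both replicate 3 libraries.

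Both genome maintenance helicases were tested and neither passed the test. DHX9, which unwinds RNA-DNA hybrids, had 2404, 1666 and 2360 against 1738, 1465 and 1205, with only siControl replicate 2 reached by a siCGGBP1 library (-0.54 ± 0.23, adjusted p = 0.259, or -0.34 without both replicate 3 libraries). DDX11, a DNA helicase of sister chromatid cohesion with near-identical copies elsewhere in the genome, had 394, 396 and 428 against 194, 216 and 848. Its sign turned on siCGGBP1 replicate 3, from 0.05 ± 0.50 with that library to -0.98 without it (adjusted p = 0.208). Of the 4 RNA sensors 2 were tested and neither passed. DDX58 (RIG-I) had a log2 fold change of -0.68 ± 0.65 and DDX60L of -0.09 ± 0.64, which for DDX60L became -0.78 without both replicate 3 libraries. Both mitochondrial helicases, DDX28 and DHX30, were tested and neither passed, DHX30 with a log2 fold change of -0.05 ± 0.26. DHX32, whose function is little known, was at 0.05 ± 0.43, or at 0.59 without both replicate 3 libraries.

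None of the related genes passed the test by edgeR. All 3 EIF4A genes, DEAD-box helicases under another symbol, were tested and none passed the test (median log2 fold change -0.10, none at an unadjusted p under 0.05). Of 17 other RNA helicases 15 were tested, 7 with a log2 fold change below 0 and 8 above (median 0.01, none at an unadjusted p under 0.05). Of 29 cofactors and partner proteins 28 were tested, 17 below 0 and 11 above (median -0.06). In this last list 3 genes were lower and 1 higher at an unadjusted p under 0.05, against 8.32% and 8.10% of all tested genes. The groups did not overlap, with siCGGBP1 lower, for 8 of the 28 and, with siCGGBP1 higher, for 1. The background was 12.1% in each direction, and the list was not tested as a set. GPATCH11, a G-patch protein, had the lowest adjusted p of this list (log2 fold change -1.68 ± 0.46, adjusted p = 0.0863, or 0.0130 by DESeq2). GLE1, which activates DDX19 at the pore, was at -1.18 ± 0.35 (adjusted p = 0.110, or 0.0410 by DESeq2), and ALYREF, the export adaptor that works with DDX39B, at -1.25 ± 0.45 (adjusted p = 0.184). DESeq2 passed 2 of the 28 (7.14%), GPATCH11 and GLE1, near its 6.01% over all tested genes, and none of the other lists.

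The summed reads of each family are given as a description, and neither a sum nor a difference between DDX and DHX was tested. All DDX reads together came to 4808, 4048 and 4130 RPM (reads scaled to a library total of 1000000) in siControl and 3844, 3536 and 3796 in siCGGBP1, a mean 13.9% lower (4329 ± 417 against 3725 ± 166, SD, n = 3). All DHX reads came to 1155, 1079 and 1230 against 1006, 908 and 1032 RPM, 14.9% lower (1155 ± 75.3 against 982 ± 65.1). In neither family did the groups overlap, and the DDX groups stayed apart with DDX21 left out (3477 to 3905 against 3069 to 3333). The siControl libraries at 0 and 200 µM 4sU had 4232 and 3979 for DDX and 1176 and 1178 for DHX on the same scale, above every siCGGBP1 library. The DHX share of the reads of both families was 19.4, 21.1 and 22.9% in siControl and 20.7, 20.4 and 21.4% in siCGGBP1, where the groups overlapped.

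**Figure D3:**
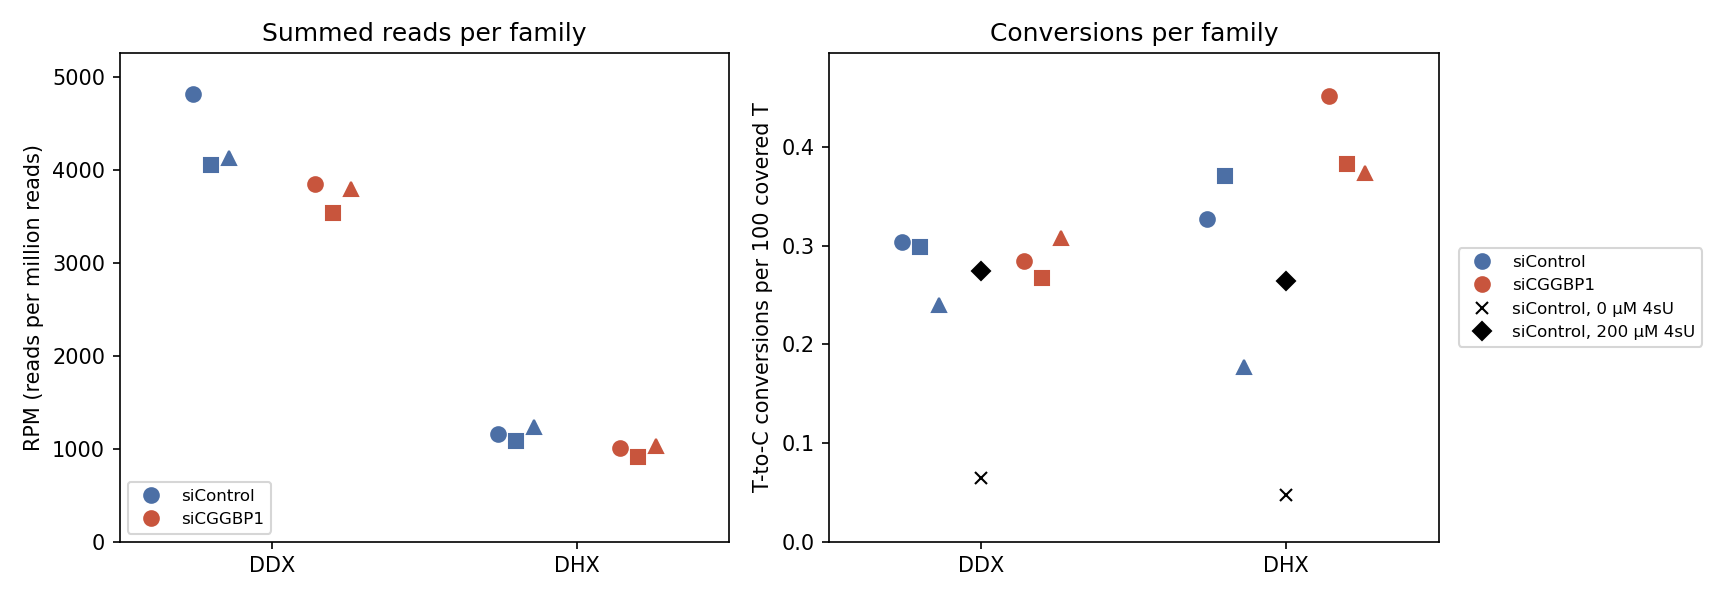
Left, all DDX or DHX reads (RPM) in each library. Right, T-to-C conversions per 100 covered T over all DDX or DHX genes, with the single siControl libraries at 0 µM (crosses) and 200 µM 4sU (diamonds). siControl is blue and siCGGBP1 red, with circles, squares and triangles for replicates 1 to 3. The red points lie below the blue ones for reads in both families, overlap them for DDX conversions and lie above them for DHX conversions.

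For newly made RNA the groups were compared through T-to-C conversions. Per 100 covered T positions, the siControl values of DDX genes were 0.304, 0.299 and 0.240 and those of siCGGBP1 were 0.285, 0.268 and 0.308, with 0.0647 in the unlabelled library. DHX genes had 0.327, 0.371 and 0.177 against 0.451, 0.383 and 0.374, with 0.0477 in the unlabelled library. The DHX groups did not overlap, although siControl replicate 2 came close to siCGGBP1 replicate 3, and siControl replicate 3 was by far the lowest. Without DHX15 the DHX values were 0.318, 0.338 and 0.155 against 0.362, 0.346 and 0.278, which overlapped. Over all genes the same measure was 0.234, 0.245 and 0.183 against 0.263, 0.225 and 0.241.

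The new-to-total ratio of each gene, an estimate of the share of its RNA made within the pulse, was uneven across libraries. It was 0 for 5, 5 and 25 of the 48 tested helicases in siControl and for 12, 10 and 23 in siCGGBP1. The share of all tested genes at 0 was 57.2% and 59.2% in the replicate 3 libraries and 22.5 to 31.9% in the other 4. Only 14 helicases had a ratio above 0 in all 6 libraries. The median over helicases of the mean siControl ratio was 4.63% for DDX and 6.35% for DHX, against 4.51% for all tested genes.

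DHX15 had the highest mean siControl ratio of the tested helicases, 13.6, 22.5 and 31% in siControl and 27.1, 27.0 and 40.4% in siCGGBP1. The 90% credible limits were 10.9 to 16.8% for the lowest siControl library and 37.6 to 43.2% for the highest siCGGBP1 library. Only siControl replicate 3 reached into the siCGGBP1 range of the ratio. The means were 22.3 ± 8.69% and 31.5 ± 7.69% (SD, n = 3), and an exact permutation test of the 20 regroupings gave p = 0.30, two-sided, or 0.45 adjusted over the 3 partner genes tested. This permutation test, two-sided with 3 against 3 libraries, cannot go below 0.10. The library with 200 µM 4sU gave 20.7%. Conversions per 100 covered T in DHX15 were 0.452, 0.665 and 0.610 in siControl and 1.346, 0.826 and 1.166 in siCGGBP1. By that measure the groups did not overlap, and the difference per covered T was not tested. An edgeR fit of the conversion counts passed no helicase (lowest adjusted p = 0.802). In DHX15 new reads the log2 fold change was 0.69 ± 0.85 (adjusted p = 1.00).

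DDX41 had a ratio of 4.58% in siControl replicate 1 and of 0 everywhere else, from 13 conversions in all at 75 µM. New DDX41 RNA was therefore not detectable at this depth in 5 of 6 libraries, and the ratio difference had an exact permutation p of 1.00. DDX28 had 22.0, 14.9 and 0% against 4.76, 45.4 and 100%, a scatter as wide as the scale itself (exact permutation p = 0.30). The value of 100% came from siCGGBP1 replicate 3, where all 67 reads were estimated as new. They held 67 conversions over 2144 covered T positions. Whether these reads were PCR duplicates of fewer molecules was not tested.

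Among the other helicases with high ratios DDX20 had 19.7, 27.5 and 18.9% in siControl and 28.6, 18.3 and 36.2% in siCGGBP1. DDX21, with the most reads, had 12.4, 13.3 and 9.70% against 14.4, 12.8 and 22.4%. DHX57 had 10.3, 33.1 and 3.61% against 29.4, 17 and 81.8%. DDX10, DDX23, DDX47 and DHX32 completed the highest siControl means, at 14.2, 14.2, 18.0 and 18.2%. DHX32 was at 12.1, 14.2 and 28.2% in siControl and at 0, 11 and 0% in siCGGBP1.

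**Figure D4:**
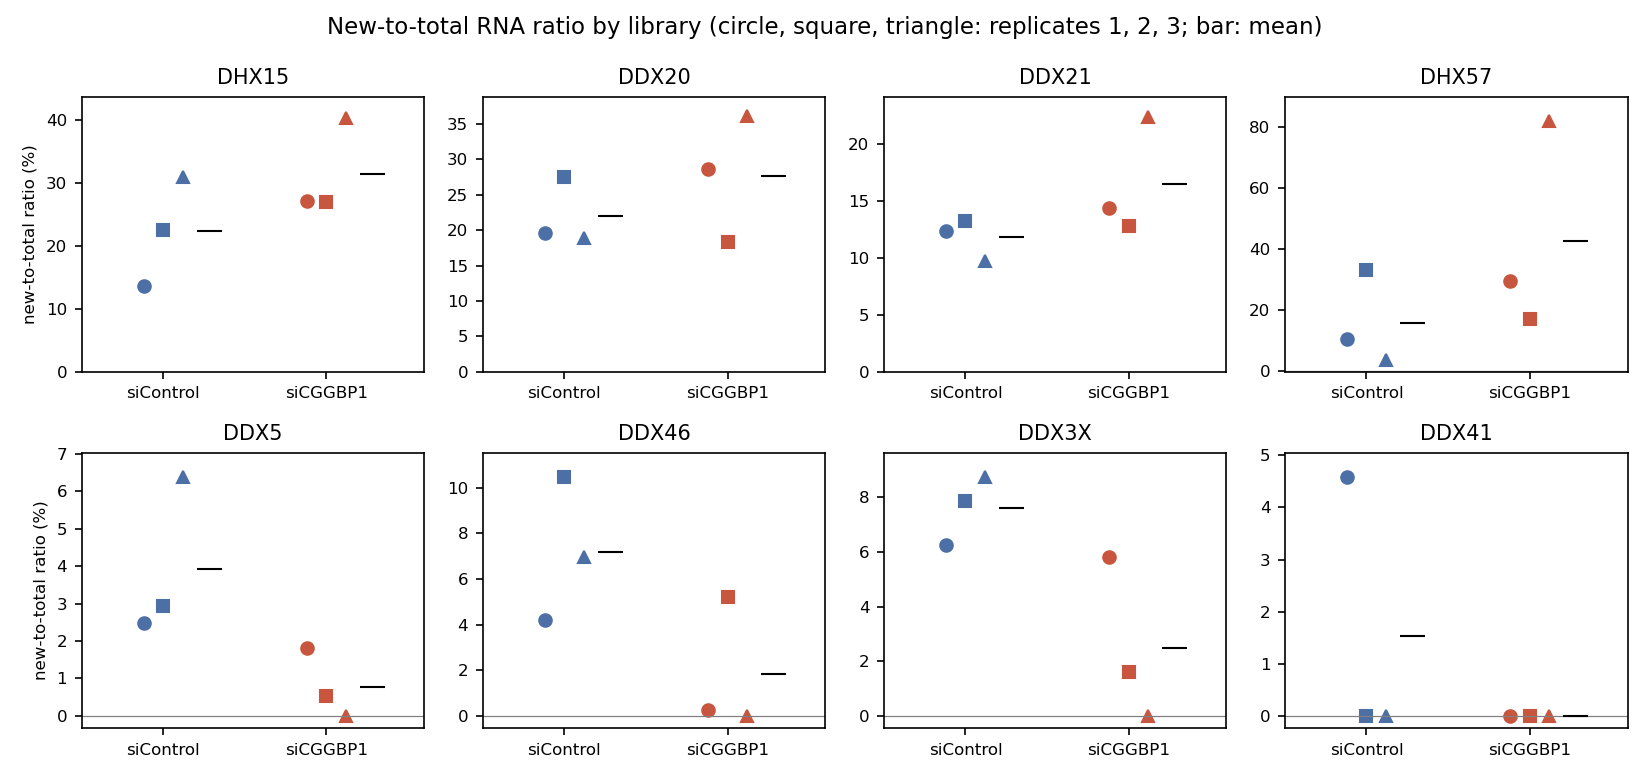
New-to-total RNA ratio in percent (y axis) in each library for 8 helicases, siControl in blue and siCGGBP1 in red, with circles, squares and triangles for replicates 1 to 3 and the mean as a black bar. DHX15 and DDX20 lie highest together with DHX57, whose replicate 3 value reaches 81.8%, while DDX5, DDX46 and DDX3X have lower red means and DDX41 a single point above 0.

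No helicase passed the test in new RNA, where 0.0493% of all tested genes did in either direction. By DESeq2, which passed 0.247% of all tested genes, the count for the 48 was also 0. By limma it was 0 as well, and limma passed 0 of the 10138 genes. At an unadjusted p under 0.05 there was 1 helicase (2.08%, background 3.15%), DDX46. Its new reads were 121, 253 and 261 in the siControl libraries, against 6.22, 86.2 and 0 after depletion (log2 fold change -2.80 ± 1.36, unadjusted p = 0.0389, adjusted p = 0.994). DDX5 had 120, 140 and 406 against 85.7, 23.0 and 0 (-2.48 ± 1.27, unadjusted p = 0.0509), and the fold change was -1.16 without both replicate 3 libraries. DDX3X had 133, 201 and 239 against 121, 43.1 and 0. These 3 were the helicases with siCGGBP1 below siControl throughout, 3 of 48 where 4.47% of all tested genes did so, and for none was siCGGBP1 above throughout (background 2.89%). In each of the 3 the siCGGBP1 replicate 3 library was at 0. Conversions per 100 covered T in DDX46 were 0.227, 0.381 and 0.214 in siControl and 0.0756, 0.386 and 0.0256 in siCGGBP1. By that measure siCGGBP1 replicate 2 of DDX46 lay above every siControl library. In DDX5 and DDX3X each siCGGBP1 value stayed below each siControl value, in DDX5 by very little (0.1537 against 0.1539). DDX54 was at 0 new reads in all siCGGBP1 libraries and at 22.2, 18.1 and 0 in siControl (adjusted p = 0.994). These zeros are estimates and not counts. Conversions per 100 covered T in DDX54 were 0.152, 0.104 and 0.176 in siControl and 0.162, 0.0898 and 0 in siCGGBP1, so each siCGGBP1 value of replicates 1 and 2 was close to that of siControl. The upper 90% credible limits of its ratio in siCGGBP1 were 1.22, 1.01 and 0.49%, and no fold is given.

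The median log2 fold change of new RNA was -0.49 for DDX and 0.50 for DHX, against -0.03 for all tested genes. With groups at or below 3 new reads set to 3, a substitution and not a bound, the DDX median was -0.38 over 33 helicases and the DHX median stayed at 0.50. These medians had little hold, since the spread of the per-library medians was 1.15 for DDX and 0.841 for DHX on the log2 scale (SD). The DHX median was -0.10 without siCGGBP1 replicate 1, and from conversion counts the medians were 0.02 for DDX and 0.31 for DHX.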

How the data were processed

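SLAM-Seq of U-2OS Tet-ON cells was analysed, 3 siControl and 3 siCGGBP1 libraries with 75 µM 4sU, with single siControl libraries at 0 and 200 µM as references. The authors deposited expected counts per gene (reads, conversions of T to C, covered T positions), made with GRAND-SLAM. Ribosomal reads had been removed with Bowtie2 2.3.0 and the rest mapped to GRCh38 with STAR 2.5.3a, per the submitters' processing notes. The deposited new-to-total ratio is a fraction per gene in each library given 4sU, printed here in percent. No step for PCR duplicates is given in the sources used here, and there are no molecular identifiers, so bounds and limits cover counting error only. The columns of 4sU double hits were not used.

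The symbol rule that gave the 52 members, the role groups and the related lists were chosen with earlier results of these data known. The role groups and lists come from general knowledge of the proteins. Reads were rounded, and a gene was tested when 3 or more of the 6 libraries reached 100 reads (10138 of 18388). Groups were compared with edgeR 4.0.16 (R 4.3.3, quasi-likelihood F test, TMM, Benjamini-Hochberg over all tested genes). SE was taken from the fold change and its F statistic (absolute log2 value over the root of F), and 95% intervals use the fitted degrees of freedom. New RNA was reads times ratio, with library sizes from total reads. DESeq2 1.42.0 and limma 3.58.1 served as alternatives. Exact permutation tests used scipy 1.17.1. Named helicases were the partners, those past the test, the largest fold changes, the most reads, the highest ratios, the lowest p in new RNA and paralog pairs. Members whose groups did not overlap, and the best-known members of the role groups, were named after their values were seen. One further marker gene is not reported here. Coordinates are from GENCODE 44, matched by gene ID, and promoters from RefSeq. The annotated 3′ end lies inside another gene for 19 of the 52 helicases, for 4 of them on the same strand, and whether counting used the strand is not given in the sources used here.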

Additional observations from a re-analysis of the deposited data

Results flagged for a closer look

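In the siControl library labelled with 200 µM 4sU, which entered no comparison, DDX genes had 0.274 T-to-C conversions per 100 covered T and DHX genes 0.264, above the 0.0647 and 0.0477 of the library without 4sU. The 75 µM siControl libraries ranged from 0.240 to 0.304 for DDX and from 0.177 to 0.371 for DHX, so the higher dose lay inside both ranges. It is a single library, and no dose comparison was tested.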

How the results depend on the processing

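The counts of helicases past the test and the medians of both families were recomputed under every alternative, with 2 changes in the counts. In total RNA the count of lower helicases went from 0 to 1 with no filter on low counts (DDX46) and to 1 with both replicate 3 libraries left out (DDX1). That second setting was added after seeing the data. The DDX median in total RNA, -0.19, ranged from -0.29 to -0.11 with single libraries left out, and the DHX median, -0.17, from -0.31 to -0.10, reaching -0.31 without both replicate 3 libraries. Medians in new RNA ranged from -1.35 to -0.29 for DDX and from -0.10 to 0.66 for DHX with single libraries left out.

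With a replicate block the medians in total RNA were -0.23 for DDX and -0.24 for DHX, and no helicase passed the test. Same-numbered libraries deviated together at r = 0.105, 0.172 and 0.0835, each the highest for its library, which is a hint from the data and not the design. The block turned the sign for 6 helicases, DDX10 (0.000534), DDX11 (-0.32), DDX31 (-0.0375), DDX60L (0.35), DHX32 (-0.0375) and DHX40 (-0.00689), which left 40 below 0 and 8 above.

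Among the helicases named by rule, the only ones listed here, some total-RNA fold changes changed sign with single libraries left out. On the log2 scale they ran from -0.30 to 0.26 for DDX10, -0.98 to 0.39 for DDX11, -0.0923 to 0.38 for DDX17, -0.36 to 0.0105 for DDX19A, -0.65 to 0.0105 for DDX20, -0.55 to 0.0854 for DDX23, -0.99 to 0.17 for DDX28, -0.14 to 0.00612 for DDX39A, -0.12 to 0.33 for DDX47, -0.19 to 0.0625 for DDX5, -0.39 to 0.0494 for DDX54, -0.62 to 0.54 for DDX60L, -0.069 to 0.29 for DHX15 and -0.45 to 0.34 for DHX32. Without both replicate 3 libraries DDX11 was at -0.94, DDX23 at 0.16, DDX54 at 0.0839 and DHX15 at -0.19, and with their sign kept DDX10 (-0.33), DDX17 (0.29), DDX39A (-0.10), DDX47 (0.18) and DHX36 (-0.0314) moved too. In new RNA DDX21 ran from -0.28 to 0.43, with -0.0108 by DESeq2, -0.10 with TMM on new reads and -0.50 without both replicate 3 libraries, which took DHX15 from 0.69 to 0.37. The cause was not tested. In new RNA 34 of 48 helicases had a ratio of 0 in at least 1 library. The replicate 3 libraries had the most such zeros although siCGGBP1 replicate 3 was the deepest of the 6. In total RNA the standard errors were widest for the helicases with the fewest reads.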

Other observations

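Over the 6 libraries at 75 µM 4sU, the genes outside the family whose log2 normalized reads followed DDX41 most closely were TGIF2-C20orf24, GEMIN6, VAMP3, ZNF703 and RPUSD4 (Pearson r = 0.994 to 0.982). For DHX15 they were VPS11, GCC1, CNNM3, LINC01297 and SRCAP (r = 0.992 to 0.980). These are the highest correlations among all tested genes, over the same few libraries, which share depth and group, and are listed as a description.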
